A study of Anser cygnoides with 11 samples.

Results

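Claudins are membrane-spanning proteins of the tight junction, the seal between neighbouring epithelial cells, and 9 of them were examined in gosling kidney: CLDN1, CLDN2, CLDN3, CLDN8, CLDN10, CLDN12, CLDN14, CLDN16 and CLDN19. The set was chosen with earlier results of these data known. Rows were found by symbol in the gene table of the study, without use of their values, apart from CLDN12, whose more abundant of 2 rows was taken. Of the 9 symbols, 8 had a row among the 19275 rows of the table and CLDN8 had none. Messenger RNA was sequenced from the kidneys of 11 young swan geese (Anser cygnoides). The gout group held 5 goslings picked for visceral gout and its signs in serum, a disease in which urate settles on the organs, and the control group held 6 healthy goslings. Strain, age, sex and batch are not given in the labels, and each library is taken as 1 gosling.

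Each claudin forms either a barrier or a selective pore in the space between cells, so the set that a tubule segment makes decides which ions and how much water can pass beside its cells. In mammals CLDN2 is a cation and water pore of the proximal tubule, CLDN10 has isoforms that pass anions or cations, and CLDN16 and CLDN19 together let calcium and magnesium be reabsorbed in the thick ascending limb of the loop of Henle. CLDN14 blocks that CLDN16 pathway and is under the control of the calcium-sensing receptor. CLDN1, CLDN3 and CLDN8 are mostly barrier-forming. Birds have nephrons without a loop beside nephrons with one, and these segment roles are known from mammals, not from the goose.

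Values are FPKM, fragment numbers scaled by transcript length and by the mapped fragments of the library. They can be compared between genes, less surely where a row combines several transcripts in a way not given, as for CLDN1, CLDN10 and CLDN19. A row was tested when 5 or more libraries had 1 FPKM or more, with limma on log2(FPKM + 1). Benjamini-Hochberg adjustment ran over all 12252 rows tested, and an adjusted p under 0.05 made a call. Depth is unknown, since the table holds no counts. The FPKM of a gout library added up to between 229465 and 399990, and that of a control library to between 306484 and 390546 (exact permutation p = 0.411). Some other measures of the libraries differed between the groups. The 10 most abundant rows held 25.6% to 29.7% of the FPKM in gout and 18.7% to 22.2% in control libraries (exact permutation p = 0.00216). Rows at 1 FPKM or more numbered 10712 to 11927 and 11847 to 12569, with overlap (exact permutation p = 0.00433). The median log2(FPKM + 1) of the tested rows was 2.24 to 2.88 in gout and 2.73 to 3.05 in control libraries (exact permutation p = 0.0563). The mean correlation of a library with the others of its group was 0.856 to 0.883 in gout and 0.904 to 0.920 in control. Each such value shares library pairs with others of its group and depends on the group label, so no permutation p is given. The part of these differences in the claudin levels was not tested. Over all tested rows the log2 fold change, gout minus control, had a median of -0.29, against which each change below is to be read, and of 0.01 after quantile normalization, which makes the distributions of the libraries equal. The calls were 85 higher and 771 lower rows on the deposited scale and 226 higher and 245 lower after quantile normalization, so that rises made up 9.93% and 48.0% of them. Kidney markers were present: the tested lists held 15 proximal tubule, 12 thick limb and 8 podocyte genes, while UMOD and NPHS1 had no row under those symbols.

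Among the claudins, CLDN19 fell in gout kidney, CLDN14 lay lower in all gout libraries but under the filter, and the most abundant claudins, CLDN1 and CLDN3, did not pass the test. Of the 7 claudins tested, 1 was called lower and 0 higher, beside 6.29% of all tested rows called lower, 0.694% called higher and 6.99% called in either direction. After quantile normalization the claudin counts were again 1 and 0, beside 2.0% of rows lower, 1.84% higher and 3.84% in either direction. At an unadjusted limma p under 0.05, 3 claudins were lower and 0 higher. Neither this nor any unadjusted count below is to be read against the shares of adjusted calls, since many more rows reach that limit. EPCAM, an epithelial gene with an unadjusted limma p of 0.0459, ranked 3185 by p among the 12252 tested rows, both directions counted. The median log2 fold change of the 7 was -0.37, against -0.29 over all tested rows. A single call among 7 is not far from the background share, so it describes CLDN19 and says nothing of the claudins as a family.

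**Figure D1:**
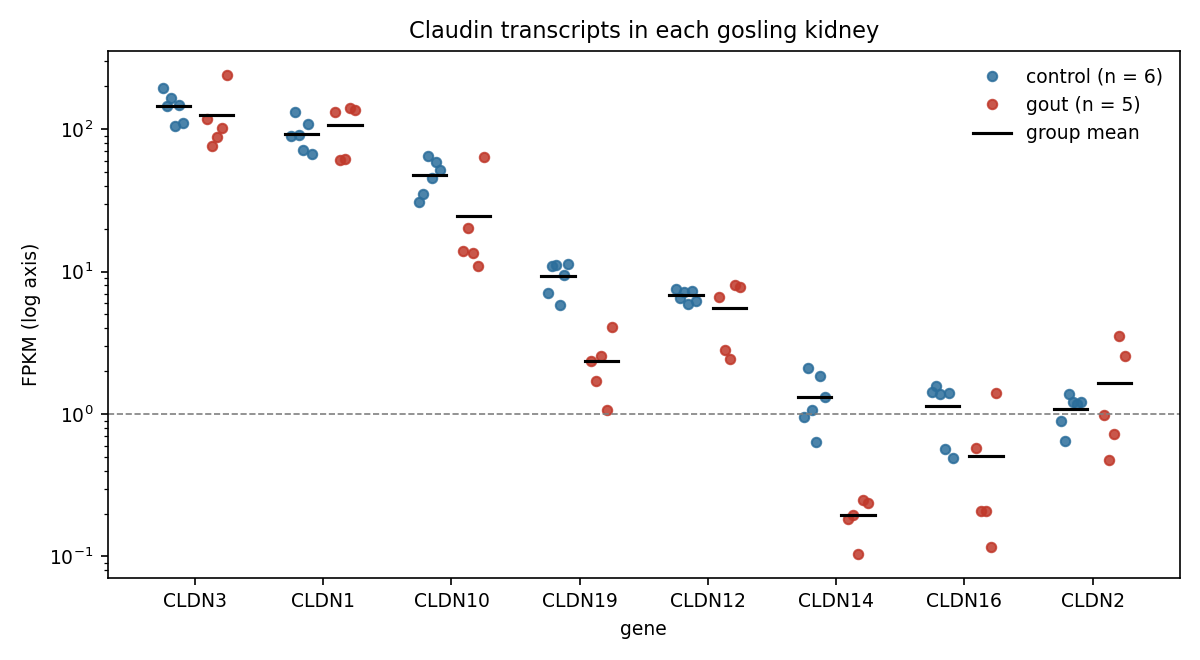
FPKM of the 8 claudins with a row, on a log axis, for each of 6 control and 5 gout libraries, with the group mean as a bar and 1 FPKM as a dashed line. CLDN19 and CLDN14 are the genes whose gout points all lie below the control points, and 1 gout point of CLDN10, at 63.8 FPKM, sits among the controls.

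The levels covered a wide range, with CLDN12 taken on the more abundant of its 2 rows. In control kidneys the order by mean FPKM was CLDN3 at 145 ± 33.9, CLDN1 at 93.1 ± 24.0, CLDN10 at 47.6 ± 13.1, CLDN19 at 9.27 ± 2.35, CLDN12 at 6.80 ± 0.662, CLDN14 at 1.32 ± 0.555, CLDN16 at 1.14 ± 0.474 and CLDN2 at 1.09 ± 0.269 (SD, n = 6). CLDN3 exceeded CLDN1, CLDN1 exceeded CLDN10, CLDN10 exceeded CLDN19 and CLDN12 exceeded CLDN14 in each of the 6 control libraries. CLDN19 and CLDN12 are not separated beyond their spread, with CLDN19 above in 4 of 6 control libraries, nor are the last 3 genes, where CLDN14 exceeded CLDN16 in 4 and CLDN16 exceeded CLDN2 in 3 of 6. In gout kidneys CLDN19 was above CLDN12 in 1 of 5 libraries and CLDN3 above CLDN1 in 3 of 5. CLDN3 stood above 98.7% of all rows by control mean and CLDN2 above 36.3%.

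CLDN19, the partner of CLDN16 in the cation pathway of the mammalian thick limb, had 2.36, 1.70, 2.56, 1.06 and 4.11 FPKM in gout replicates 1 to 5. In the control libraries it had 5.80 at the lowest, 10.2 at the median and 11.3 FPKM at the highest. All 5 gout libraries therefore lay below all 6 controls, which was so for 4.55% of tested rows, while the opposite order held for 0.482%. The mean went from 9.27 ± 2.35 to 2.36 ± 1.14 FPKM (SD, n = 6 and 5), with a log2 fold change of -1.64, SE 0.26, and limma adjusted p = 0.00441. It ranked 53 by p among the 12252 rows. After quantile normalization the log2 fold change was -1.33 with limma adjusted p = 0.00903, and with each gosling left out in turn it lay between -1.81 and -1.48 with adjusted p from 0.00437 to 0.0152. The CLDN19 row combines 2 transcripts, as does that of CLDN1, and how they were combined is not given.

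CLDN14, the claudin that closes the CLDN16 pathway in mammals, had 0.182, 0.197, 0.104, 0.249 and 0.238 FPKM in the gout libraries. The control libraries ran from 0.634 through a median of 1.20 to 2.09 FPKM. The groups did not overlap, as in 3.77% of all rows of the table, with 0.415% the other way round. Its control mean of 1.32 ± 0.555 was 6.80 times its gout mean of 0.194 ± 0.0574 FPKM (SD, n = 6 and 5). Because 4 libraries reached 1 FPKM, CLDN14 was not among the tested rows. On the log2(FPKM + 1) scale its difference was -0.92, with an exact two-sided permutation p = 0.00433 over all splits of the goslings, unadjusted. In the fit without a filter over 19275 rows, of which 3.29% were called lower, 0.431% higher and 3.72% in either direction, its limma adjusted p was 0.0138, and that of CLDN19 0.0116. These are levels at which a fold change rests on little signal.

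CLDN16, whose loss in humans leads to renal wasting of magnesium and calcium, had 0.578, 0.209, 0.208, 0.116 and 1.41 FPKM in gout. Control libraries ran from 0.495 through a median of 1.39 to 1.56 FPKM. The groups overlapped, since gout replicate 5 lay close to the control median and control replicates 4 and 6 lay below gout replicate 1. The means were 0.504 ± 0.536 and 1.14 ± 0.474 FPKM (SD, n = 5 and 6), with a log2 fold change of -0.54, SE 0.23, and limma adjusted p = 0.148. Without gout replicate 5 the gout mean was 0.278 FPKM and CLDN16 was called lower (log2 fold change -0.72, limma adjusted p = 0.0364). The filter was not set anew for that fit. CLDN16 had passed it with 5 libraries, gout replicate 5 among them, and would fall under it without that gosling, so this call carries little weight. With all goslings the log2 fold change was -1.31 and -1.59 with pseudocounts of 0.1 and 0.01, and -0.29 after quantile normalization, none of them called (limma adjusted p = 0.131, 0.141 and 0.417).

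CLDN10, the pore former with anion- and cation-selective isoforms in mammals, had 13.9, 20.3, 13.4, 10.9 and 63.8 FPKM in gout. Control libraries ran from 30.7 through a median of 48.5 to 64.3 FPKM. Gout replicates 1 to 4 lay below every control, and gout replicate 5 lay near the top of the controls. The means were 24.5 ± 22.3 and 47.6 ± 13.1 FPKM (SD, n = 5 and 6), with a log2 fold change of -1.21, SE 0.39, and limma adjusted p = 0.0728. Without gout replicate 5 the gout mean was 14.6 FPKM and the call was made (log2 fold change -1.62, limma adjusted p = 0.00642). Its row combines 3 transcripts, so the isoforms could not be separated.

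**Figure D2:**
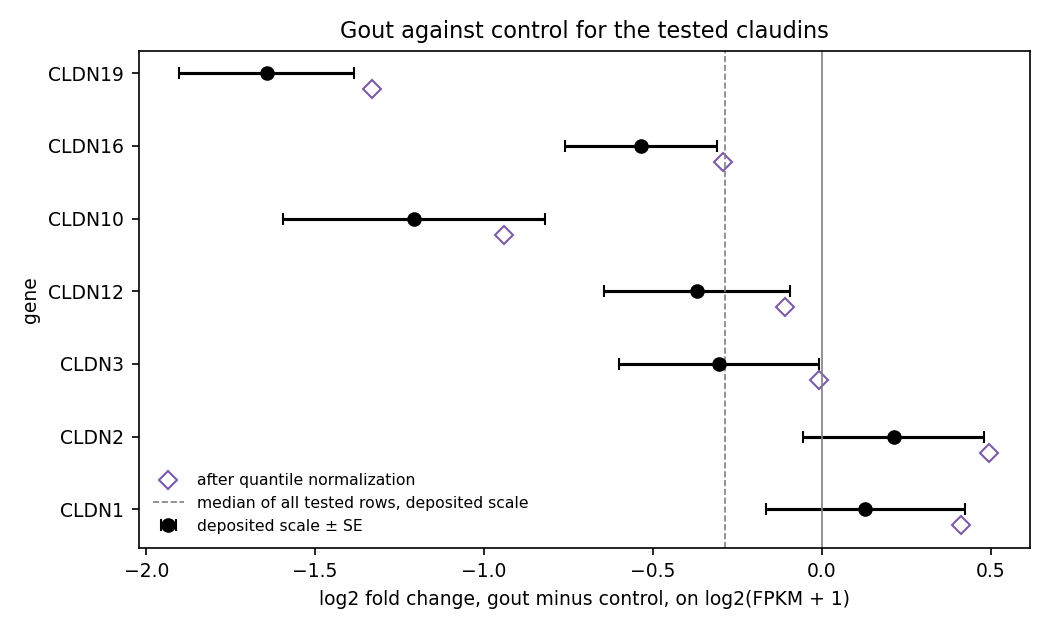
Log2 fold change of gout minus control on log2(FPKM + 1) for the 7 claudins tested, as circles with the limma SE, and after quantile normalization as diamonds. CLDN19 lies at -1.64 and -1.33, while the circles of CLDN3 and CLDN12, at -0.31 and -0.37, lie close to the dashed line at -0.29, the median of all tested rows on the deposited scale.

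The abundant barrier claudins differed by less than the spread between goslings. CLDN3 had 118, 76.1, 88.2, 101 and 241 FPKM in gout and 105 to 196 FPKM, with a median of 146, in control libraries. Gout replicate 5 held the highest value of the 11, and gout replicates 2 to 4 lay below the lowest control. Its log2 fold change was -0.31, SE 0.30, with limma adjusted p = 0.521. CLDN1 had 131, 60.9, 61.9, 142 and 136 FPKM in gout and 67.3 to 131 FPKM, with a median of 90.0, in controls. Gout replicates 4 and 5 lay above all controls, gout replicate 1 close to the highest control, and replicates 2 and 3 below all of them. Its log2 fold change was 0.13, SE 0.29, with limma adjusted p = 0.801, and it was -0.05 with array weights.

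CLDN2 had 0.982, 0.472, 0.719, 3.52 and 2.54 FPKM in gout and 0.651 to 1.39 FPKM, with a median of 1.19, in controls. Gout replicates 4 and 5 lay above all controls, and gout replicate 2 below all of them. The log2 fold change was 0.21, SE 0.27, with limma adjusted p = 0.629, and -0.02 without gout replicate 4. CLDN12, which takes part in calcium permeability of the proximal tubule in mice, had 6.64, 2.81, 2.45, 8.01 and 7.78 FPKM in gout. Its control libraries were the most even of the 8 claudins, from 5.91 through 6.88 to 7.60 FPKM, a coefficient of variation of 9.73% against 48.9% in gout. Its log2 fold change was -0.37, SE 0.28, with limma adjusted p = 0.401. The second CLDN12 row, which lists the annotated transcripts, had 2.19 ± 1.25 in gout and 2.10 ± 0.421 FPKM in control libraries (SD, n = 5 and 6), with limma adjusted p = 0.924.

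CLDN8, a barrier claudin of the mammalian collecting duct, had no row under its symbol. A row named LOC106043422 that the table describes as claudin-8-like was listed at 0 in 10 of the libraries and at 0.0930 FPKM in control replicate 6. A claudin-16-like row, LOC106049727, had at most 0.0757 FPKM.

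The share of each claudin in the summed FPKM of the 8 is not changed by a single scale factor for a library. The sum was 266 ± 119 in gout and 305 ± 48.6 FPKM in control kidneys (SD, n = 5 and 6). CLDN1 and CLDN3 together made up 87.5% ± 3.93 of it in gout and 77.5% ± 5.46 in control, and 71.1% to 91.1% over all libraries. The groups overlapped in this share, with 82.5% in gout replicate 5 and 85.4% in control replicate 1. CLDN19 made up 0.942% ± 0.399 and 3.07% ± 0.847, and all gout shares lay below all control shares. The same held for CLDN14, at 0.0789% ± 0.0281 and 0.429% ± 0.157. For CLDN10 the shares were 8.70% ± 4.39 and 16.0% ± 4.84, with overlap. In gout replicate 5, CLDN10 made up 13.9%, less than in 4 of the 6 controls, although its FPKM was near their top. As shares of 1 sum these values are linked, and they are given without a test.

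**Figure D3:**
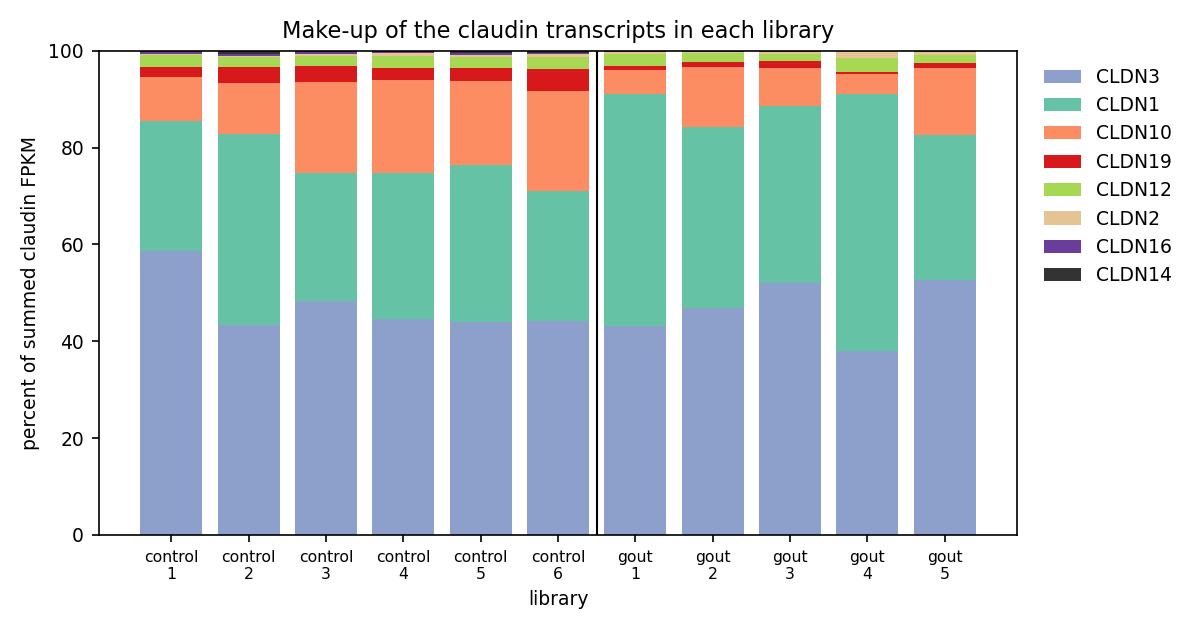
Percent of the summed FPKM of the 8 claudins taken by each, stacked to 100 for the 6 control and 5 gout libraries. CLDN3 and CLDN1 fill most of every bar, and the CLDN19 band is thinner in each gout library (0.397% to 1.51%) than in each control (2.10% to 4.53%).

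Of 8 log2 ratios between genes within a library, 6 could be computed, and p-values were adjusted over these 6. Both ratios with CLDN14 were left out because it was under the filter. The log2 ratio of CLDN2 to CLDN10, which sets a proximal pore against CLDN10, was -3.08 ± 1.08 in gout and -4.50 ± 0.267 in control (SD, n = 5 and 6), a difference of 1.42 with exact two-sided permutation p = 0.00433 and adjusted p = 0.0130. The groups overlapped at gout replicate 5. Most of the difference lies in CLDN10, whose log2 fold change was -1.21, against 0.21 for CLDN2, and neither gene was called by itself. The log2 ratio of CLDN16 to CLDN19 was higher by 1.11 in gout, also with exact permutation p = 0.00433 and adjusted p = 0.0130, and without overlap. With a pseudocount of 0.1 the difference was 0.71 and was not called (exact permutation, adjusted p = 0.234). Most CLDN16 and CLDN2 values lie near or under the main pseudocount of 1.

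CLDN19 was compared with SLC12A1, the sodium-potassium-chloride cotransporter that marks the mammalian thick limb. SLC12A1 itself fell, from 31.5 ± 14.7 to 9.91 ± 5.25 FPKM (SD, n = 6 and 5; limma adjusted p = 0.0349), a call lost after quantile normalization (limma adjusted p = 0.108) and without any one of gout replicates 3 and 4 and control replicates 3, 5 and 6. The log2 ratio of CLDN19 to SLC12A1 was -1.57 ± 0.786 in gout and -1.57 ± 0.485 in control, a difference of -0.00 with exact permutation p = 0.998. That p-value does not show the ratio to be equal, since the difference ran from -0.24 to 0.29 with single goslings left out and was -0.24 with a pseudocount of 0.1. The log2 ratios of CLDN16 and CLDN10 to SLC12A1 differed by 1.11 and 0.43, with exact permutation p adjusted to 0.0812 and 0.470, and the first was 0.47 with a pseudocount of 0.1. That of CLDN2 to LRP2, the proximal endocytic receptor megalin, differed by 1.29, with exact permutation p adjusted to 0.0812. The log2 fold change of CLDN2 was 0.21, so most of that difference lies in LRP2. In such bulk tissue fewer cells of a segment and less RNA per cell cannot be told apart.

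**Figure D4:**
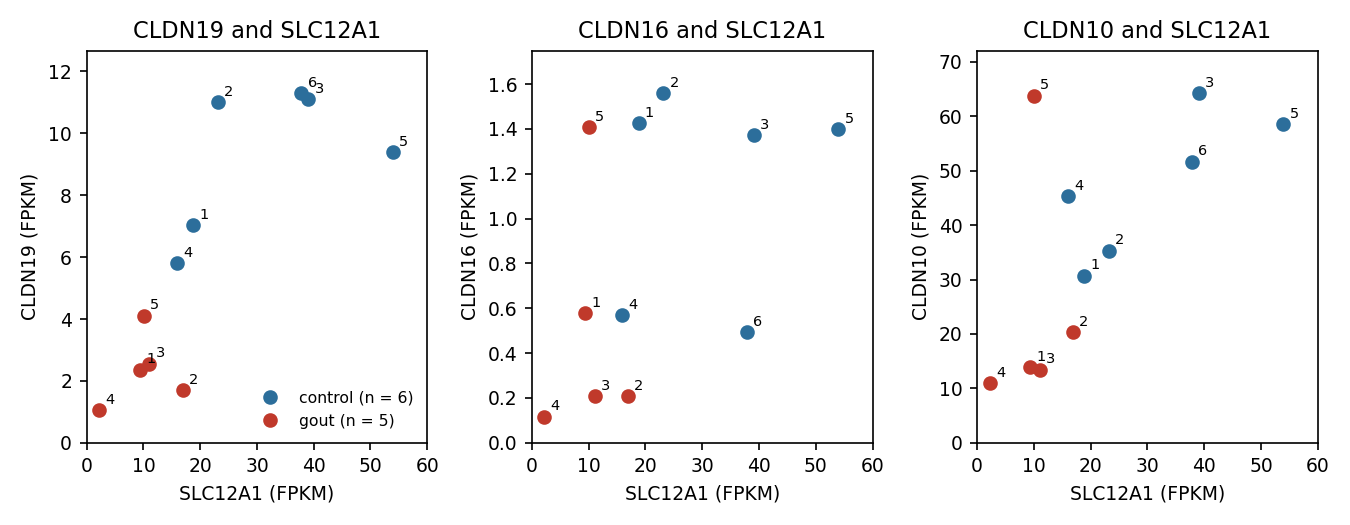
FPKM of CLDN19, CLDN16 and CLDN10 against SLC12A1 in the 6 control and 5 gout libraries, with the replicate number beside each point. Gout points lie below all control points in CLDN19, while in SLC12A1 they lie mostly lower and the groups overlap. Gout replicate 5 combines 63.8 FPKM of CLDN10 with 10.0 FPKM of SLC12A1.

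Whether CLDN10, CLDN16 and CLDN19 vary together among goslings was examined on deviations from the group means, over 11 libraries and 3 pairs. For CLDN16 and CLDN19, Pearson's r was 0.61 (permutation p = 0.0817, adjusted 0.122) and Spearman's rho 0.33 (permutation p = 0.344, adjusted 0.436), and r was 0.71 without gout replicate 5 and control replicate 6. For CLDN10 and CLDN19, r was 0.65 and rho 0.65 (permutation p = 0.0628 and 0.0396, adjusted 0.122 and 0.119). For CLDN10 and CLDN16, r was 0.55 and rho 0.26 (permutation p = 0.142 and 0.436, adjusted 0.142 and 0.436). Without gout replicates 4 and 5, the 2 goslings farthest from the median in CLDN10, these r values were 0.19 and -0.24. Neither r is therefore shown to hold without those goslings, though leaving them out also narrows the range of CLDN10. None of the 3 pairs passed.

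The genes whose deviations from the group means were most like those of a claudin, by Pearson's r over the 11 libraries and among all tested rows with a symbol, are given as a description. For CLDN19 they were FAM19A3, ADORA2A and STON2, at r of 0.94, 0.94 and 0.92. For CLDN16 they were CD82, ATP6V1E1 and GNPAT, at 0.97, 0.95 and 0.94, and for CLDN10 CNEP1R1, PPP1R14D and ACYP2, at 0.97 each. CLDN1 was nearest to STK25, MKRN1 and GPN2 (0.98, 0.97 and 0.96), CLDN3 to SYNGR1, PEPD and DPP7 (0.96, 0.96 and 0.94), CLDN2 to SLC25A5, TM6SF2 and PEMT (0.96 each), and CLDN12 to AIMP2, EIF6 and RAB6A (0.98 each). No other claudin was among these nearest 3 for any member, and since these are the highest values of a search over all such rows, no test goes with them.

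RefSeq's list of genes for the Taihu goose assembly, with an entry for 7 of the 9 symbols, places CLDN16 and CLDN1 next to each other. Their levels were far apart, at 1.14 and 93.1 FPKM in control kidneys, and neither passed the test. TMEM207, on the other side of CLDN16, stood at 2.08 ± 1.82 in gout and 5.18 ± 2.21 FPKM in control (SD, n = 5 and 6; limma adjusted p = 0.0603). Beside CLDN3 lay a row described as claudin-4-like, LOC106041045, with 0.359 ± 0.291 and 0.135 ± 0.181 FPKM, under the filter.

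Of 17 other claudin symbols looked for, 8 had a row and 3 were tested, and 0 passed in either direction, with 1 lower at an unadjusted limma p under 0.05. That was CLDN23, at 1.70 ± 0.871 in gout and 3.05 ± 0.851 FPKM in control (SD, n = 5 and 6; limma adjusted p = 0.121). CLDN5, the claudin of endothelium, stood at 14.9 ± 20.7 and 8.70 ± 2.29 FPKM (limma adjusted p = 0.984). Its gout mean rested on gout replicate 4 at 51.7 FPKM and was 5.75 without it. CLDND1, a related protein, stood at 17.3 ± 6.32 and 21.1 ± 4.54 FPKM. CLDN11, CLDN18, CLDN20, CLDN25 and CLDN34 had means under 1 FPKM in both groups.

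Neither list of proteins that claudins work with held a call on the deposited scale. Among 10 tested membrane partners of the junction 0 passed, with 2 lower and 0 higher at an unadjusted limma p under 0.05 and a median log2 fold change of -0.32. OCLN, occludin, stood at 67.3 ± 34.0 in gout and 68.4 ± 12.6 FPKM in control (SD, n = 5 and 6), and JAM3, a junctional adhesion molecule with the smallest p of the list, at 3.06 ± 1.28 and 4.68 ± 1.10 (limma adjusted p = 0.164). Among 22 tested plaque and scaffold genes 0 passed, with 0 lower and 1 higher at an unadjusted p under 0.05, and the median was -0.00. PARD3, a polarity scaffold, stood at 6.76 ± 2.53 and 4.04 ± 1.13 FPKM (log2 fold change 0.59, limma adjusted p = 0.135) and was called higher after quantile normalization (limma adjusted p = 0.0316). TJP1, the scaffold ZO-1 to which claudins bind, stood at 3.25 ± 0.895 and 3.79 ± 1.72 FPKM. Of the 155 tested rows that the deposited annotation places in the KEGG tight junction pathway, a set that holds 7 of the 8 claudins, 7 were lower and 0 higher, 4.52% lower against 6.29% of all rows. Beside CLDN19 these were the alpha-catenins CTNNA1 and CTNNA2, EPB41L5, the protein kinases C PRKCB and PRKCQ, and a row without a symbol. CTNNA1 stood at 16.3 ± 2.89 in gout and 29.3 ± 6.49 FPKM in control (SD, n = 5 and 6), with no overlap (limma adjusted p = 0.0422). After quantile normalization 1 row of the pathway was lower, CLDN19, and 4 were higher, among them MPP4, PARD3B and another row of PARD3. The calls over all rows moved the same way, from 6.29% lower and 0.694% higher to 2.0% and 1.84%. The shift is therefore not particular to the pathway.

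Of 20 tested genes listed as regulators of claudins or of the transport beside them, 3 fell, beside 6.29% of all tested rows lower. After quantile normalization 0 were called, beside 2.0% of rows lower. The role of each listed gene was not checked. CASR, the calcium-sensing receptor that controls CLDN14 in mammals, had 1.11, 1.14, 0.957, 0.453 and 2.15 FPKM in gout. Its control libraries had 2.18 FPKM or more, so that the groups did not overlap (log2 fold change -0.83, limma adjusted p = 0.0285). PTH1R, the parathyroid hormone receptor, fell from 144 ± 46.2 to 65.6 ± 25.6 FPKM (SD, n = 6 and 5; limma adjusted p = 0.0308). KLHL3, an adaptor for degradation of WNK kinases, fell from 13.5 ± 3.68 to 6.69 ± 2.89 FPKM (limma adjusted p = 0.0449). None of the 3 was called after quantile normalization (limma adjusted p = 0.0730, 0.0580 and 0.209), and the calls were lost on leaving out any one of 6, 7 and 9 goslings. For CASR these were gout replicates 2, 3 and 4 and control replicates 2, 3 and 5.

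Counts of segment markers called lower are to be read against the 6.29% of all tested rows, and against 2.0% after quantile normalization. The lists share genes, and CASR and KLHL3, given above as regulators, are counted again here. Of 12 tested thick limb genes 2 fell, SLC12A1 and CASR, with 0 after quantile normalization or upper quartile scaling and 0 to 5 with single goslings left out, the 5 without gout replicate 5. KCNJ1, a potassium channel of the thick limb, stood at 2.43 ± 2.87 in gout and 5.10 ± 1.08 FPKM in control (1.19 in gout without gout replicate 5; limma adjusted p = 0.0817). The summed FPKM of the 13 thick limb genes with a row was 224 to 434 in gout kidneys and 376 to 486 in control kidneys. Of 9 distal convoluted and connecting tubule genes 3 fell, CALB1, SLC8A1 and KLHL3. Of these CALB1 was called after quantile normalization (limma adjusted p = 0.0216), while SLC8A1 and KLHL3 were not (0.0797 and 0.209). SLC12A3, the thiazide-sensitive cotransporter of the distal convoluted tubule, stood at 21.6 ± 3.75 and 21.2 ± 7.43 FPKM. Of 15 proximal tubule genes 5 fell, among them the transporters SLC22A7 and SLC6A19, the creatine enzyme GATM and the peptidase ANPEP, with summed levels of 449 to 1019 in gout and 542 to 2649 FPKM in control. After quantile normalization 3 of the 5 were called, without ANPEP (limma adjusted p = 0.0697) and SLC4A4 (0.116), and with single goslings left out 3 to 7 of the list were, the 7 without gout replicate 5. Of 8 intercalated cell genes 2 fell, SLC4A9 and RHCG, of which SLC4A9 was not called after quantile normalization (limma adjusted p = 0.0634). Of 10 principal cell genes 0 passed, with 2 lower at an unadjusted limma p under 0.05, and SCNN1G, a subunit of the epithelial sodium channel, had the smallest (limma adjusted p = 0.0887).

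General epithelial genes did not pass, 0 of 7, with 1 lower at an unadjusted limma p under 0.05, and EPCAM, which binds claudins, stood at 25.4 ± 13.3 in gout and 38.0 ± 9.06 FPKM in control (SD, n = 5 and 6; limma adjusted p = 0.177). Of 15 endothelial genes 0 passed, with 6 lower at an unadjusted limma p under 0.05 and TEK, an angiopoietin receptor, closest (limma adjusted p = 0.0506). At that unadjusted limit 8 of 15 proximal tubule and 6 of 12 thick limb genes were lower too. So were 5 of 9 distal convoluted and connecting tubule genes and 5 of 8 intercalated cell genes. Over all tested rows at least 3185 of 12252 reached that limit in either direction, EPCAM being number 3185 by p. The share of all rows lower at that limit is not given, so these counts do not set the lists apart from other rows. All 16 leukocyte markers fell, CD79B, CD2, CTSS and JCHAIN among them, a list drawn up with earlier results of these data known, and they summed to 159 to 1645 FPKM in gout kidneys and 1209 to 5336 FPKM in control kidneys. After quantile normalization 10 of the 16 were called. The part of these shifts in cell markers in the levels of CLDN19 and CLDN14 was not tested.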

How the data were processed

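Per the labels' protocols, RNA was taken up in Trizol, enriched for poly(A) and sequenced from both ends on an Illumina machine. Those labels also speak of oxygen in water tanks and of an adipose type, which does not match gosling kidney, and nothing was taken from these lines. HISAT and StringTie are the tools named in the submitters' processing notes, and neither version nor build was given in the sources used here. It was the authors who made the deposited FPKM values, with 1 column per gosling, matched by title. How rows that list several transcripts were combined is not given.

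Low values (under 0.5 FPKM) were searched for steps of single fragments. At most 0.958% of low rows shared a ratio in any of the 55 library pairs, so counts could not be recovered, no count test applied and counting error is unknown. Identical values were found in 0 pairs. R 4.3.3 with limma 3.58.1 fitted group means, with a mean-variance trend and two-sided tests; Python 3.11.15, pandas 2.3.3, scipy 1.17.1 and matplotlib 3.10.9 did the rest. A pseudocount of 1 understates changes of low rows. Single values were tested with two-sided exact permutation tests, whose smallest p is 0.00216. The fit was tested on simulated data, with changes planted only in the more abundant rows and no shift of whole libraries. Recovery of a change was therefore not examined for rows as low as CLDN2, CLDN12, CLDN14, CLDN16 and CLDN19. Separate housing or cultures are not described, so p-values measure only the spread between these samples, and batches could not be examined.

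The claudins, the 13 gene lists (221 distinct symbols) and the tests were chosen with earlier results of these data known. Named were all claudins, for each list its 4 smallest passing p-values, or its smallest where none passed, the terms of the ratios, and the 3 genes most like each claudin; other genes given with values were chosen after their values were seen. Alternatives were pseudocounts of 0.1 and 0.01, no filter, quantile normalization, a stricter filter of 5 FPKM, TPM, scaling by the upper quartile, array weights, a block for the title number, summed rows, and leaving out each gosling. The second CLDN12 row was chosen after the data were seen. The result of the podocyte list is not reported here.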

Additional observations from a re-analysis of the deposited data

Results flagged for a closer look

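Of 76 groups of values examined, the 2 groups of each claudin, named gene and ratio, 1 had a value set apart from the others by Dixon's criterion, which chance meets in about 5% of groups. JCHAIN, the joining chain of antibodies and a leukocyte marker, stood at 116 FPKM in gout replicate 1, with 7.47 FPKM in the next highest gout library. The criterion was applied to log2 values, and there no claudin met it, gout replicate 5 of CLDN10 included. On the FPKM scale, where it was not applied, that library stood at 63.8 beside 20.3 in the next highest gout library. For CLDN3, gout replicate 5 stood at 241 beside 118 FPKM.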

How the results depend on the processing

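CLDN19 stayed lower and past the threshold in all 10 other settings (log2 fold change -2.07 to -1.33, limma adjusted p 0.00417 to 0.0122) and without each gosling. Claudins called lower numbered 2 without a filter, with CLDN14, and 2 with array weights, where CLDN10 was called (limma adjusted p = 0.0454). With single goslings left out they numbered 1 to 3, the 3 without gout replicate 5. Among those 3 was CLDN16, which would fall under the filter without that gosling. Claudins called higher were 0 throughout. CLDN1 went to -0.047 with array weights, and CLDN2 ran from -0.015 without gout replicate 4 to 0.39 over goslings left out and was 0.50 after quantile normalization. Rows called higher and lower were 49 and 401 with the filter at 5 FPKM, 226 and 245 after quantile normalization, 181 and 341 with upper quartile scaling, and 141 and 571 on the TPM scale. Leaving out single goslings gave 44 to 93 higher and 267 to 1382 lower, the fewest lower without gout replicate 2 and the most without gout replicate 5. Of the ratios, CLDN16 to CLDN19 lost its call with a pseudocount of 0.1 (0.71). Over goslings left out it ran from 0.95 to 1.21, CLDN2 to CLDN10 from 0.998 to 1.70, CLDN16 to SLC12A1 from 0.80 to 1.40, CLDN19 to SLC12A1 from -0.24 to 0.29, CLDN10 to SLC12A1 from 0.07 to 0.65 and CLDN2 to LRP2 from 0.85 to 1.55. The cause was not tested. The title number as a replicate block, which left out control replicate 6 for want of a gout library of that number, gave 74 higher and 616 lower rows. CLDN19 was at -1.58 (limma adjusted p = 0.0106), the log2 fold change also found without control replicate 6 and without a block. The block changed no claudin call, and correlations of same-numbered deviations from -0.09 to 0.24 do not show pairing. With 5 and 6 goslings and depth unknown, differences of CLDN14, CLDN16 and CLDN2, near 1 FPKM, are the least certain.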
